A study of Mus musculus with 12 samples.

Results

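The genes of the CD3 chains and of the first kinases of the T cell receptor were followed in libraries labelled as T cells or macrophages purified from lung tumours of mice. The members are *Cd3d*, *Cd3e*, *Cd3g*, *Cd247*, *Lck* and *Zap70*, taken by symbol, and they make up 6 of the 770 genes of a NanoString panel of mouse immune genes. NanoString counts barcoded probes bound to RNA, without amplification. All mice carried the lung tumour model that the labels name KrasTrp53 GEMM, a genetically engineered mouse model, on a mixed background. The mice received vehicle, JQ1 or ricolinostat. JQ1 blocks bromodomains, which read acetyl groups on histones, and ricolinostat blocks histone deacetylases, HDAC6 above others. Each cell type under each treatment has 2 libraries, 12 libraries in 6 groups. Dose, duration, age and the alleles in full are not given in the sources used here. Whether replicate libraries represent different mice is not in the labels, so p-values here reflect library-to-library spread, which may be technical.

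The T cell receptor itself has no signalling domain and is carried at the cell surface by the CD3 delta, epsilon and gamma chains and by the zeta chain, encoded by *Cd247*. When the receptor binds a peptide on another cell, the kinase Lck phosphorylates the tails of these chains. The kinase ZAP-70 then docks on the phosphorylated tails and passes the signal to adaptors and to downstream enzymes. The CD3 chains mark T cells in most tissues, while Lck, ZAP-70 and the zeta chain are also made by natural killer (NK) cells.

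*Cd3d*, *Cd3e* and *Cd3g* lie together on mouse chromosome 9, and their promoter windows are shown because the signals of these neighbours went apart in some libraries described below. Each window runs from 250 bases before to 50 bases after the annotated start, from RefSeq on GRCm38.p6, written 5′ to 3′ on the gene's strand. The windows are chr9:44981536-44981835 (plus strand) for *Cd3d*, chr9:44980382-44980681 (minus strand) for *Cd3g* and chr9:45009562-45009861 (minus strand) for *Cd3e*. The starts of *Cd3g* and *Cd3d* are 1355 bases apart on opposite strands, and those of *Cd3d* and *Cd3e* are 27825 bases apart. Capitals mark matches, on either strand, to the E-box letters CAGGTG and to the letters CAGGAAG, an ETS-type motif.
Cd3d promoter: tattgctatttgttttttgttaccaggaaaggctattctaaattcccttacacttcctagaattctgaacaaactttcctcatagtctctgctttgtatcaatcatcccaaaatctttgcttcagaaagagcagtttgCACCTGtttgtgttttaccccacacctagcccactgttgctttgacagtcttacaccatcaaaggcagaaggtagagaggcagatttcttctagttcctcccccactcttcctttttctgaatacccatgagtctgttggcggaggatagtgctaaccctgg
Cd3g promoter: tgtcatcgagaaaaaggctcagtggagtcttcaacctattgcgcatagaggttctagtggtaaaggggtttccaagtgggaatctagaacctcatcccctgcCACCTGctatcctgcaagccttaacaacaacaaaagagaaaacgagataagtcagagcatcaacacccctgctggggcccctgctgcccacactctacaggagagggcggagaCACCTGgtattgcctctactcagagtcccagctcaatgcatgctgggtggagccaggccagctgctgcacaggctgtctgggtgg
Cd3e promoter: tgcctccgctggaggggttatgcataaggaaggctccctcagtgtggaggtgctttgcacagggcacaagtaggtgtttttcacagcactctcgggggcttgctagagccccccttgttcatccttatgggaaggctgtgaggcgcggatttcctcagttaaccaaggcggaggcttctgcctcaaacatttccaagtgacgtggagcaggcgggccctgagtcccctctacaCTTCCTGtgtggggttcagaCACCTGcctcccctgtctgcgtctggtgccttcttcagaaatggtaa
The E-box letters occur in all 3 of these windows and the ETS-type letters in that of *Cd3e*, with no overlap between them. The 6 genes have 9 annotated windows, of which 8 hold the E-box letters, against 20.2% of 32851 mouse windows of this length. The ETS-type letters are in 5 of the 9, against 13.3% of all windows. The RUNX-type letters TGTGGT are in 2 of the 9, against 16.8%, and the TATA-type letters TATAAA in 0 of the 9, against 13.6%. The motifs were chosen after the sequences had been seen, and a match describes letters, not a bound site.

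The values are the authors' normalised signals on a linear scale. A signal of 20 was taken as the top of the background, and it stands for 2.7 to 14 counts, depending on the library. Between 508 and 635 genes per library exceeded it, and counts above background ran from 773600 to 2082100 per library. Both ricolinostat replicate 2 libraries stood apart from the other 10. The 20 housekeeping genes summed to 304140 and 545470 there, against 106520 to 144060 elsewhere. Over the tested genes, log2 differences between replicates had an SD of 2.21 for ricolinostat and 0.65 for vehicle in T cells, and 2.67 and 0.75 in macrophages. The first running number in the labels is 33 and 34 in these libraries and 8 to 21 in the others. Results are therefore given with and without them. The purification label was checked against markers. *Cd68*, which marks macrophages, ranged from 28050 to 40800 in T cell libraries and from 38598 to 47588 in macrophage libraries. *Csf1r*, also a macrophage marker, ranged from 5063.69 to 15524.22 in T cell libraries and from 4373.95 to 14162.57 in macrophage libraries. The 13 macrophage markers made up 33.8% to 37.3% of all signal in T cell libraries other than ricolinostat replicate 2 (15.9%). In macrophage libraries other than ricolinostat replicate 2 they made up 30.4% to 36.9%. The libraries labelled T cells were thus not free of macrophage transcripts, and held a share of them similar to that of the macrophage libraries.

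In vehicle T cells all 6 genes stood well above background in both libraries. *Cd3d* had 519.81 and 482.86 (mean 501 ± 26.1 SD, n = 2), *Cd3e* 431.75 and 563.27, and *Cd3g* 721.36 and 933.59. *Cd247* had 386.74 and 256.44, *Lck* 549.16 and 484.98, and *Zap70* 155.84 and 173.91. Each replicate deviated from the vehicle mean by at most 0.30 on the log2 scale. The replicates lay furthest apart on that scale for *Cd247* (mean 322 ± 92.1 SD, n = 2). Levels are not compared between genes here, since each probe has its own efficiency. Together the 6 genes held 0.0751% and 0.0729% of the signal of these libraries.

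**Figure D1:**
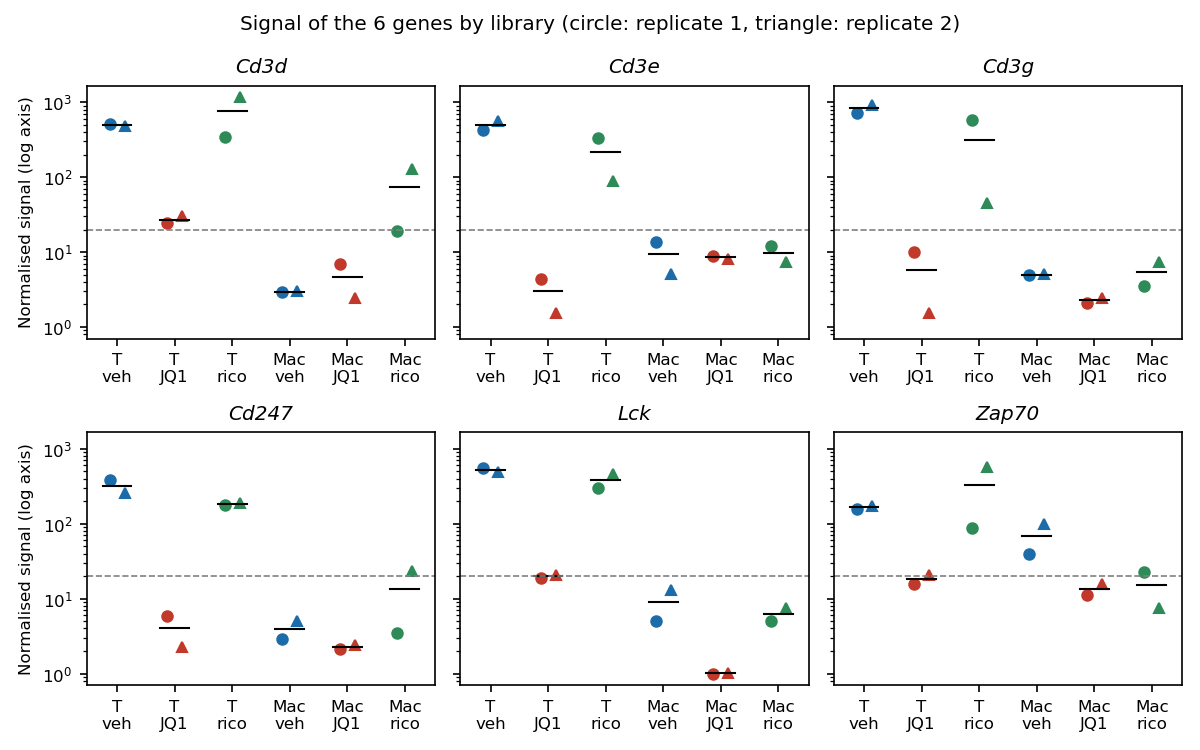
Normalised signal of each gene (log axis) in the 12 libraries, grouped as T cells (T) or macrophages (Mac) under vehicle (veh), JQ1 or ricolinostat (rico). Circles and triangles are replicates 1 and 2, the short line is the group mean and the dashed line is the background limit of 20. All 6 genes read 30.13 or below in JQ1 T cells, and the ricolinostat T cell replicates parted for *Cd3d*, *Cd3e*, *Cd3g* and *Zap70*.

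Under JQ1 the CD3 chains read far lower in T cells. *Cd3d*, the delta chain, had 24.38 and 30.13, just above background and far from both vehicle libraries. It was 17.9-fold lower, a log2 difference of -4.16 ± 0.70 (SE), with an adjusted p of 0.0305 in limma. *Cd3e*, the epsilon chain, had 4.42 and 1.55, at background in both libraries. It was at least 23.5-fold lower (limma adjusted p = 0.0123), where "at least" sets the vehicle mean against a signal of 20 on the log2(signal + 1) scale. *Cd3g*, the gamma chain, had 10.12 and 1.55, also at background, and was at least 39.1-fold lower (limma adjusted p = 0.0386). The delta chain was thus the CD3 gene that remained above 20 in both JQ1 libraries.

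The zeta chain gene *Cd247* had 5.84 and 2.29 under JQ1, at background in both libraries, and was at least 15-fold lower (limma adjusted p = 0.0123). *Lck*, the kinase that starts the cascade, had 18.68 and 20.85, on the edge of background, and was lower by -4.64 ± 0.51 (SE) on the log2 scale, or 24.9-fold (limma adjusted p = 0.0123). *Zap70*, the kinase that docks on the chains, had 15.83 and 20.85. It read lower by a log2 difference of -3.11 ± 0.93 (SE), but missed the threshold (limma adjusted p = 0.182). Without ricolinostat replicate 2, whose spread the T cell fit shares, the *Zap70* difference passed (limma adjusted p = 0.00769).

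Counted together, 5 of the 6 genes fell under JQ1, where 5.56% of the 630 tested genes were called lower. Without ricolinostat replicate 2 it was 6 of 6, against 12.3% of 624. Leaving out ricolinostat replicate 1 in its place also gave 6 of 6 and 77 genes lower, since a lone library adds no spread to the fit. The median log2 difference was -5.35 over the 6 genes and -0.38 over all tested genes. Leaving out vehicle replicate 1 or 2, or JQ1 replicate 1 or 2, left 0 of the 6 called by limma, with 5 or 6 at an unadjusted p below 0.05, and 0 of all tested genes called lower in each case. A pseudocount of 20 left 3 of the 6, when all tested genes called lower fell from 35 to 8. In bulk samples such as these, fewer T cells and less of these RNAs per T cell cannot be told apart.

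Markers of T cells other than the 6 genes were low in the same libraries. The 14 other T cell markers summed to 5077.8 and 4771.0 under vehicle and to 433.2 and 376.28 under JQ1, and 8 of 14 fell, or 13 without ricolinostat replicate 2. Among the defining markers, *Thy1* read 596.12 and 605.6 under vehicle and 2.99 and 2.29 under JQ1, and *Cd8a* read 116.7 and 188.73 against 1.0 and 2.29. *Cd2*, an adhesion receptor, stayed above background with 77.14 and 78.09 under JQ1, against 337.82 and 286.07, and did not pass the test (limma adjusted p = 0.148). It read 149.92 and 204.33 in macrophages under vehicle and 76.71 and 68.35 under JQ1.

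Markers of other cells moved less evenly. The 13 macrophage markers had a median log2 difference of -0.47, with 0 called by limma and 0 at an unadjusted p below 0.05. The 8 NK cell markers, all on the panel, summed to 439.21 and 672.45 under vehicle and to 69.0 and 67.34 under JQ1, with 2 of 5 tested lower. *Ncr1*, which defines NK cells, read 79.52 and 42.72 under vehicle and 25.81 and 8.48 under JQ1, and did not pass (limma adjusted p = 0.296). The 3 epithelial markers on the panel summed to 6441.8 and 7365.2 under vehicle and to 16245 and 16096 under JQ1, with 0 of 3 past the limma threshold, 1 at an unadjusted p below 0.05, and 3 of 3 higher without ricolinostat replicate 2. Of the B cell list 0 of 4 tested genes were called by limma, and of the stroma and endothelium list 0 of 5, each with 2 at an unadjusted p below 0.05. The part of these cell types in the lower signals of the 6 genes was not tested.

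**Figure D2:**
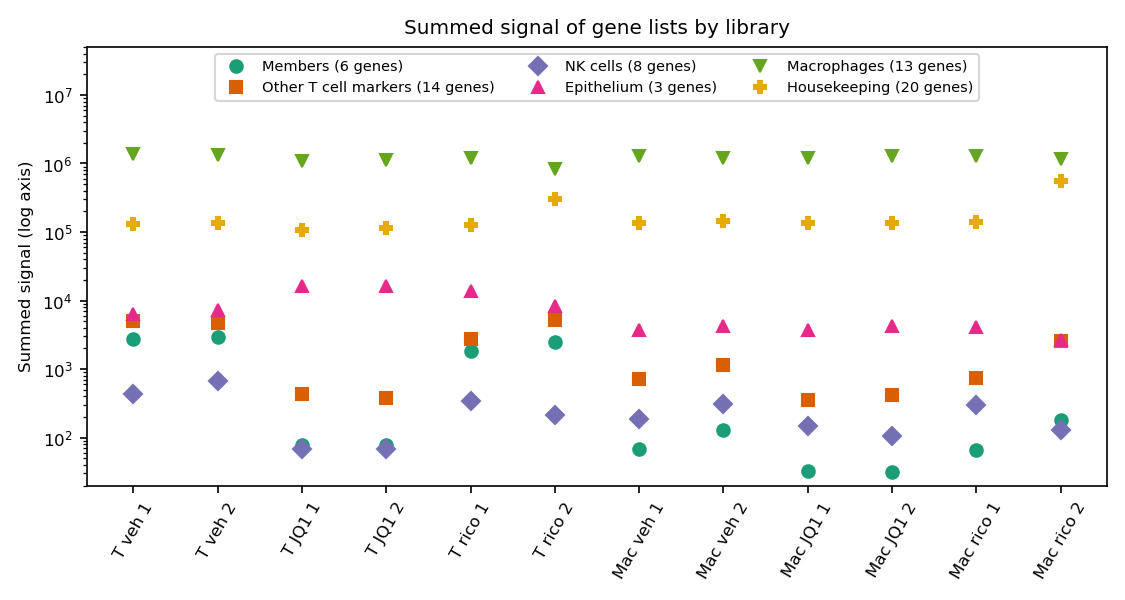
Summed signal (log axis) of the 6 genes (Members), of marker lists for other T cell genes, NK cells, epithelium and macrophages, and of the housekeeping genes, in each of the 12 libraries. The 6 genes, the other T cell markers and the NK cell markers are low in both JQ1 T cell libraries, epithelial markers are high there, macrophage markers are of like size in T cells and macrophages, and housekeeping genes are high in both ricolinostat replicate 2 libraries.

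Of a list of 56 other genes of T cell receptor signalling, 31 are on the panel and were tested, and 9 fell under JQ1 in T cells, with 0 higher and a median of -0.99. Without ricolinostat replicate 2 it was 12. Negative regulators took the largest share, with 4 lower of the 5 on the panel, out of 13 listed. *Ctla4*, the inhibitory receptor that competes with CD28, was at least 19.2-fold lower, and *Pdcd1*, which encodes PD-1, at least 14-fold lower (limma adjusted p = 0.0123 for each). *Cd5* and *Cd6*, related receptors that tune these signals, made up the 4. Co-receptors and costimulators fell in 3 of 7, led by *Icos*, a costimulatory receptor, at least 39.5-fold lower (limma adjusted p = 0.0147), with *Cd8a* and *Cd8b1*, the CD8 co-receptor chains. Downstream kinases and lipases fell in 2 of 7, among them *Txk*, a kinase of the Tec family, at least 4.65-fold lower (limma adjusted p = 0.0384). Of the transcription factors 0 of 11 were called by limma and 0 were at an unadjusted p below 0.05, with a median of -0.29. For macrophages minus T cells under vehicle these 11 had a median of -0.15, so they read alike in both. The part of macrophage transcripts in their T cell values was not tested. *Fyn*, the Src-family kinase related to Lck, differed by -0.70 ± 0.49 (SE), and *Syk*, the relative of ZAP-70, by -0.40 ± 0.49 (SE), and neither passed (limma adjusted p = 0.778 and 0.979). *Sh2d1a*, the adaptor of the list that is on the panel, read 77.56 and 63.88 in vehicle T cells. Under JQ1 it read 12.97 and 1.55, at background in both libraries, and was at least 3.4-fold lower. Its difference was thus larger than those of *Fyn* and *Syk*, but it missed the threshold (limma adjusted p = 0.111). Some of these genes, *Cd5*, *Cd6*, *Icos*, *Cd8a* and *Cd8b1* among them, are also in the T cell marker list.

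Ricolinostat left the 6 genes above background in both T cell libraries, and the replicates behaved differently. In replicate 1 *Cd3d* had 348.89, *Cd3e* 338.55, *Cd3g* 576.55, *Cd247* 178.15, *Lck* 298.88 and *Zap70* 88.47. The 6 genes lay lower by a similar amount, with deviations from the vehicle mean between -0.89 and -0.51 on the log2 scale (median -0.66). The same difference had a median of -0.22 over all 624 tested genes and of -0.88 over the 14 other T cell markers. The shift was thus not particular to the 6 genes. In replicate 2 *Cd3d* had 1159.47, *Cd3e* 88.88, *Cd3g* 45.62, *Cd247* 189.81, *Lck* 467.37 and *Zap70* 571.91. There the deviations ran from -4.14 for *Cd3g* to 1.79 for *Zap70*, a range of 5.93, against 0.38 in replicate 1.

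The proportions among the CD3 genes were therefore different in ricolinostat replicate 2. The deviations of the 6 genes had an SD of 2.24 there. The panel was measured otherwise, by the log2 difference between replicates. Over all 630 tested genes it had an SD of 2.21 for ricolinostat T cells and 0.65 for vehicle T cells. The ricolinostat replicates thus parted over the panel and not in the 6 genes alone, but the SD of the 6 and that of the panel are unlike measures. The log2 ratio of *Cd3d* to *Cd3g*, the neighbours whose windows are printed above, was -0.47 and -0.95 in vehicle T cells, -0.72 in ricolinostat replicate 1 and 4.64 in replicate 2. The ratio of *Lck* to *Zap70* was 1.81 and 1.47 under vehicle, 1.75 in ricolinostat replicate 1 and -0.29 in replicate 2. Replicate 1 kept the proportions of vehicle T cells in both pairs, and replicate 2 did not. The ratio of *Cd3e* to *Cd3g* was -0.739 and -0.728 under vehicle, -0.766 in ricolinostat replicate 1 and 0.947 in replicate 2. That of *Cd247* to *Lck* moved less, with -0.505 and -0.917 under vehicle, -0.743 in ricolinostat replicate 1 and -1.296 in replicate 2. Under JQ1 the *Cd3d* to *Cd3g* ratio was 1.19 and 3.61, with *Cd3g* at background in both libraries.

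**Figure D3:**
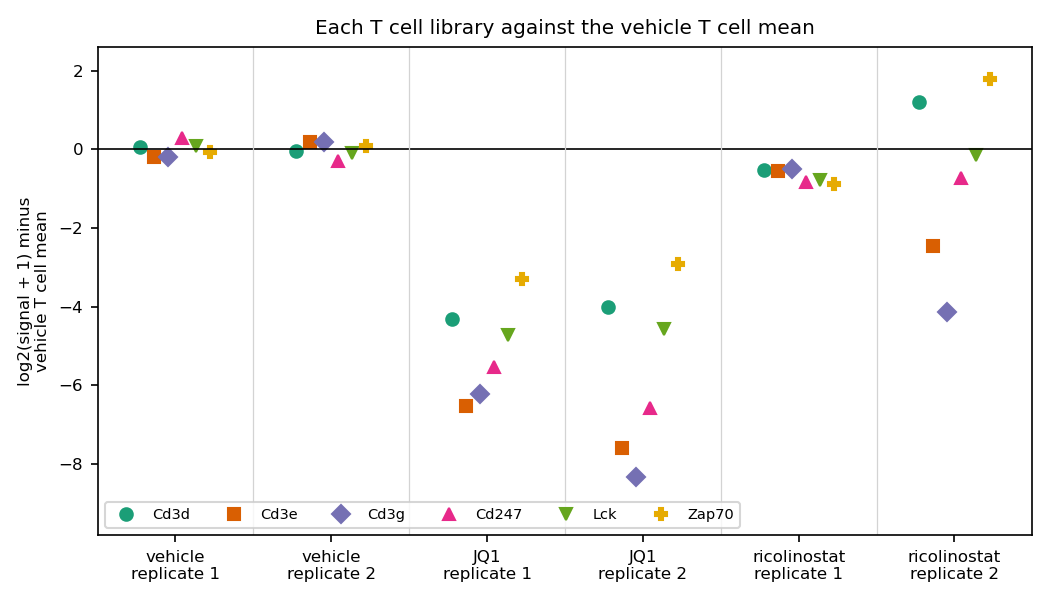
Deviation of each gene from its vehicle T cell mean, in log2(signal + 1), in the 6 T cell libraries. The vehicle replicates lie within 0.30 of 0, ricolinostat replicate 1 lies in a narrow band between -0.89 and -0.51, ricolinostat replicate 2 spreads from -4.14 to 1.79, and both JQ1 libraries lie at or below -2.92.

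Against vehicle, 0 of the 6 genes passed the test under ricolinostat, and 0% of 630 tested genes were called lower and 0% higher by limma, with 18 at an unadjusted p below 0.05. Without replicate 2 the figures were again 0 of 6 and 0% lower and 0% higher of 624, with 79 genes at an unadjusted p below 0.05. *Cd3d* differed by 0.34 ± 0.70 (SE) and *Zap70* by 0.45 ± 0.93 (SE) on the log2 scale, and both turned negative without replicate 2, at -0.52 and -0.89. *Cd3e* differed by -1.50 and *Cd3g* by -2.32, and without replicate 2 by -0.54 and -0.51. *Cd247* differed by -0.77 and *Lck* by -0.46. The limma adjusted p of the 6 genes ran from 0.657 to 0.802, and from 0.38 to 0.849 without replicate 2. *Thy1* read 381.66 and 49.22 in the ricolinostat replicates, so a defining T cell marker outside the 6 genes parted as well. The sum of the 14 other T cell markers was 2711.4 and 5288.7, and 0 of them were called by limma, with 1 at an unadjusted p below 0.05. Of the 31 signalling genes 0 were called, again with 1 at an unadjusted p below 0.05.

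Ricolinostat and JQ1 T cells differed from each other, in a comparison that uses the same JQ1 libraries as above. Of the 6 genes 4 were higher under ricolinostat, where 2.86% of 630 tested genes were called higher. *Cd3d* was higher by 4.50 ± 0.70 (SE) on the log2 scale (limma adjusted p = 0.0326) and *Lck* by 4.18 ± 0.51 (SE) (limma adjusted p = 0.0225). *Cd3e* was at least 8.32-fold higher (limma adjusted p = 0.0276) and *Cd247* at least 8.80-fold higher (limma adjusted p = 0.0225). *Cd3g* and *Zap70* did not pass (limma adjusted p = 0.185 and 0.17). Without ricolinostat replicate 2, 5 of the 6 were higher, all but *Cd3g* (limma adjusted p = 0.0646), against 4.17% of 624 genes. With a pseudocount of 20, or without vehicle replicate 1 or 2 or JQ1 replicate 1 or 2, 0 of the 6 were called by limma, with 5 or 6 at an unadjusted p below 0.05, and 0 of all tested genes were called. From the signalling list 5 of 31 were higher, led by *Pdcd1* (at least 19.3-fold), *Cd5* (at least 8.18-fold) and *Ctla4* (at least 8.55-fold), with limma adjusted p of 0.0225, 0.0225 and 0.0247.

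In macrophages the 6 genes were mostly at background. Of 12 values per treatment, 2 exceeded 20 under vehicle, 0 under JQ1 and 3 under ricolinostat. Both vehicle values were *Zap70*, at 39.75 and 98.66, which lay above background while the CD3 chains and *Lck* did not. *Zap70* lay within background under JQ1, at 11.11 and 15.44, and read 22.66 and 7.41 under ricolinostat. The other values above 20 were *Cd3d* at 127.25 and *Cd247* at 23.56, both in ricolinostat replicate 2, the library that stands apart. *Cd3d* in the other ricolinostat macrophage library was 19.15. The remaining macrophage values of *Cd3d*, *Cd3e*, *Cd3g*, *Cd247* and *Lck* lay between 1 and 13.66.

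Only *Zap70* could be tested between treatments in macrophages, where a gene needed 2 libraries above 20. It was at least 3.03-fold lower under JQ1 but did not pass (limma adjusted p = 0.999), and under ricolinostat it differed by -2.18 ± 0.83 (SE) (limma adjusted p = 0.57), or by -1.43 without replicate 2. The call count was 0 in both comparisons, as it was for all 564 tested genes, with 0% lower and 0% higher by limma and 7 and 16 genes at an unadjusted p below 0.05. Without ricolinostat replicate 1 the *Zap70* difference of -2.92 passed (limma adjusted p = 0.0262), when 183 of all tested genes were called lower and 178 higher. That value sets the vehicle libraries against ricolinostat replicate 2 alone, a library that stood apart.

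Set against T cells under vehicle, macrophages had lower signals of 5 of the 6 genes, where 10.2% of 659 tested genes were called lower. Without both ricolinostat replicate 2 libraries it was again 5, against 17.9% of 649. *Cd3g* was at least 39.1-fold lower (limma adjusted p = 0.00477), *Lck* at least 24.6-fold (0.00105), *Cd3d* at least 23.9-fold, *Cd3e* at least 23.5-fold and *Cd247* at least 15-fold (0.00203 for each of these 3). *Zap70* was the exception, with a log2 difference of -1.38 ± 0.91 (SE) and no call (limma adjusted p = 0.604, or 0.0817 without the pair). Of the signalling list 10 of 31 were lower, with *Ctla4* (at least 19.2-fold), *Pdcd1* (at least 14-fold) and *Cd5* (at least 9.47-fold) at the head. *Syk* differed by 0.36 and *Fyn* by -0.00 on the log2 scale, and neither passed. In the fit of all 12 libraries, 11 of the 14 other T cell markers were lower in macrophages (median -4.06). Of the 13 macrophage markers 0 were called by limma there and 0 were at an unadjusted p below 0.05, with a median of 0.23. Without both ricolinostat replicate 2 libraries the medians were the same, but more T cell markers were called lower and some macrophage markers were called higher in macrophages. Of other lists, 3 of 5 tested markers of stroma and endothelium were lower in macrophages (median -5.07), 2 of 4 of B cells, 1 of 3 of epithelium and 1 of 6 of NK cells, and their part in the differences was not tested.

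Under JQ1 most of the 6 genes were near or at background in both cell types. *Lck* read 1.0 and 1.01 in macrophages against 18.68 and 20.85 in T cells, and was called (limma adjusted p = 0.00651). Both group means lay below the background limit, so no fold is given and the call rests on values at background. It was the 1 gene of 6 called, where 5.46% of 659 tested genes were called lower. Without both ricolinostat replicate 2 libraries *Cd3d* was called as well (at least 1.34-fold, limma adjusted p = 0.0128), so 2 of 6 against 14.5% of 649. With the T cell and macrophage libraries that share a treatment and replicate number as a block, 2 of 6 were called, when all tested genes called lower rose from 36 to 65. Among the 31 signalling genes limma called 0 in the fit of all 12 libraries, and 2 had an unadjusted p below 0.05. Without both ricolinostat replicate 2 libraries some of these genes were called, in both directions, with the same median log2 difference of 0.18. *Cd3e*, *Cd3g* and *Cd247* were at background in both cell types under JQ1, so no fold is given. A pseudocount of 20 left 0 called by limma, with 1 of 6 at an unadjusted p below 0.05. The same held without JQ1 replicate 1 or 2 of the T cells or without JQ1 replicate 2 of the macrophages, and without JQ1 replicate 1 of the macrophages 0 were called and 2 were at an unadjusted p below 0.05.

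Under ricolinostat 5 of the 6 genes were lower in macrophages than in T cells, where 5.61% of 659 tested genes were called lower. *Lck* was at least 17.8-fold lower (limma adjusted p = 0.00118), *Cd3e* at least 8.32-fold (0.0202) and *Cd3g* at least 7.81-fold (0.0438). *Cd247* was lower by -4.14 ± 0.79 (SE) on the log2 scale (limma adjusted p = 0.0203) and *Zap70* by -4.01 ± 0.91 (SE) (0.0383). *Cd3d*, whose macrophage values include the 127.25 of replicate 2, missed the threshold with -3.65 (limma adjusted p = 0.0528). Without both ricolinostat replicate 2 libraries 5 of 6 were again lower, against 8.94% of 649, with *Cd3d* in (limma adjusted p = 0.0121) and *Zap70* out (0.126). Of the signalling list 5 of 31 were lower, led by *Pdcd1* (at least 19.3-fold), *Cd5* (at least 8.18-fold) and *Ctla4* (-4.09 on the log2 scale). Under quantile normalisation, when all tested genes called lower fell from 37 to 22, the count of the 6 genes was 1. It was 3 without any 1 of the libraries under vehicle or JQ1, or without T cell ricolinostat replicate 2.

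**Figure D4:**
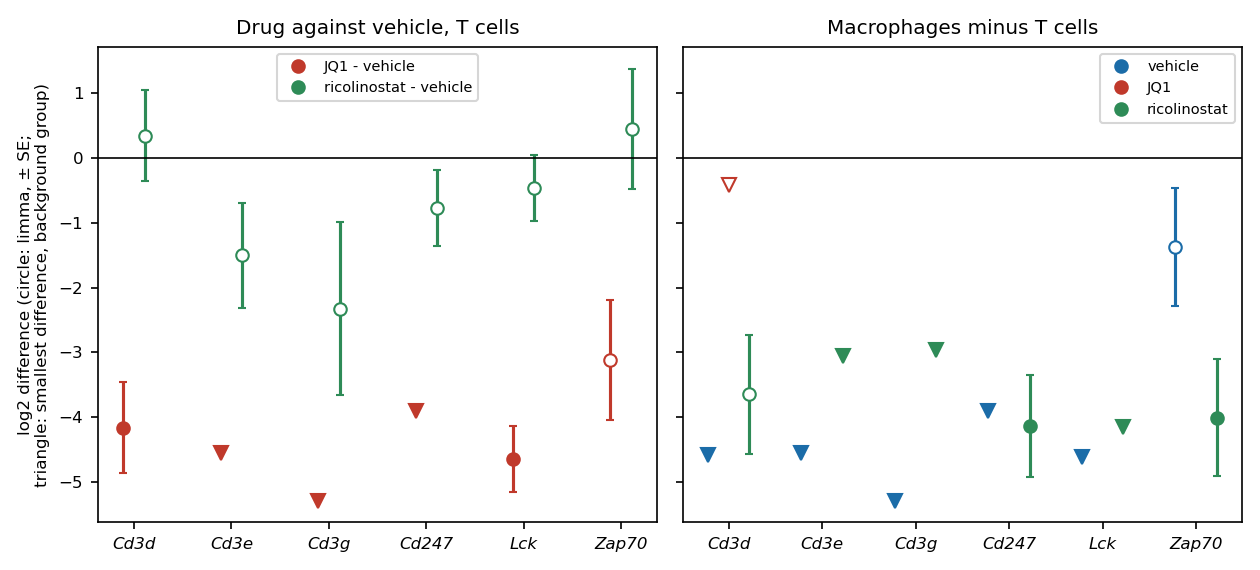
Left, log2 difference of each gene between a drug and vehicle in T cells. Right, log2 difference of macrophages minus T cells under each treatment. Circles are limma estimates ± SE, triangles are the smallest difference where 1 group was wholly at background, filled marks have an adjusted p below 0.05, and genes whose group means both lay at or below background are left out. JQ1 differences in T cells all lie at or below -3.11, ricolinostat differences in T cells are all open marks, and *Zap70* is the gene with the smallest gap between cell types under vehicle.

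Whether the JQ1 difference itself differed between T cells and macrophages was tested as an interaction, the macrophage difference minus the T cell difference. *Cd3e* was called, with 7.09 ± 1.07 (SE) on the log2 scale (limma adjusted p = 0.0255), so 1 of 6 genes against 0.91% of 659. *Cd3e* was at background in the macrophages under both treatments, where it could not fall, and entered the fit through the T cell libraries. The interaction therefore restates the T cell difference (-7.05), and its size depends on the pseudocount. Of the signalling list 2 of 31 were called, *Pdcd1* and *Cd6*, with limma adjusted p of 0.0255 and 0.0384. Both also lay at background in the macrophages under both treatments, so the same holds for them and no size is given. Without both ricolinostat replicate 2 libraries *Cd3d*, *Cd3e*, *Cd3g* and *Cd247* were called, 4 of 6 against 4.16% of 649. All 4 lay at background in the macrophages under vehicle and JQ1, so these calls restate the T cell differences as well. With the block on replicate number 0 of 6 were called by limma, with 5 at an unadjusted p below 0.05. Leaving out 1 of the vehicle or JQ1 libraries of either cell type also gave 0, with 4 or 5 at an unadjusted p below 0.05. For ricolinostat the same test called 0 of the 6 by limma, and *Cd3d* alone was at an unadjusted p below 0.05 (limma adjusted p = 0.999).

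Ordered by mean signal, vehicle and ricolinostat T cells held the upper places for each gene. *Cd3e*, *Cd3g*, *Cd247* and *Lck* were highest in vehicle T cells and next in ricolinostat T cells. Of these 4 genes, 0 differed between these groups in the test. *Cd3d* had its highest mean in ricolinostat T cells (754 ± 573, n = 2), but that group's values lie on either side of the vehicle pair. *Zap70* had means of 330 ± 342 in ricolinostat T cells, 165 ± 12.8 in vehicle T cells and 69.2 ± 41.7 in vehicle macrophages (SD, n = 2), and below these 18.3 ± 3.55 in JQ1 T cells. *Zap70* was thus the gene of the 6 with vehicle macrophages above JQ1 T cells and above background. *Cd3d* in ricolinostat macrophages (73.2 ± 76.4) was above JQ1 T cells (27.3 ± 4.07) through its replicate 2 value alone. The groups below those were at background and have no order.

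The 6 genes were also set against each other and against the rest of the panel over the 12 libraries. The points fall into groups that share cell type, treatment and depth, so correlations are descriptions and carry no test. The Pearson correlation of each gene's log2(signal + 1) with the mean of the other 5 was 0.978 for *Cd247*, 0.949 for *Lck*, 0.931 for *Cd3g*, 0.905 for *Cd3e*, 0.861 for *Cd3d* and 0.754 for *Zap70*. Without both ricolinostat replicate 2 libraries *Cd247* had 0.993 and *Zap70* 0.813, still the highest and the lowest.

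Among 653 other genes above 20 in at least 2 libraries, those most like the mean of the 6 were *Cd5* (0.989), *Ctla4* (0.984), *Il2rb* (0.98), *Cd6* (0.979), *Cxcr6* (0.975), *Cd8b1* (0.969), *Sh2d1a* (0.965), *Gata3* (0.961), *Pdcd1* (0.957) and *Thy1* (0.955). *Il2rb*, the beta chain of the interleukin-2 receptor, read 543.29 and 757.95 in vehicle T cells, 2.99 and 1.55 under JQ1, and 419.61 and 1566.8 under ricolinostat. *Cxcr6*, a chemokine receptor, read 508.07 and 666.96, then 5.84 and 1.55, then 326.47 and 171.78 in the same order. Both were at background under JQ1 and detected under vehicle and ricolinostat. In ricolinostat replicate 2 they lay on opposite sides of vehicle, as *Cd3d* and *Cd3g* did.

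**Figure D5:**
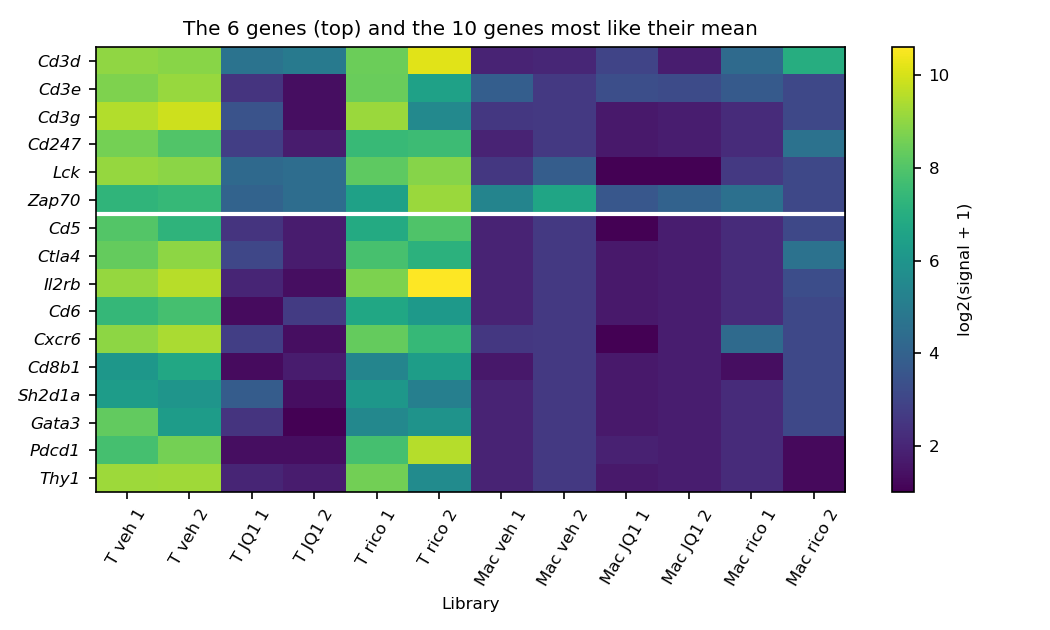
Colour shows log2(signal + 1) of the 6 genes (above the white line) and of the 10 panel genes with the highest Pearson correlation to their mean (below it), in the 12 libraries. The vehicle and ricolinostat T cell columns are bright, the JQ1 T cell and macrophage columns are dark, and *Zap70* in vehicle macrophages and *Cd3d* in ricolinostat macrophage replicate 2 are the brighter cells among the macrophages.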

How the data were processed

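NanoString signals of 770 genes were analysed in 12 libraries, grouped by the labels. The authors deposited 1 normalised signal per gene and library. Its unit was read from the values, and how it was normalised is not stated in the sources used here. Low values of each library lay on a lattice of 1 step (100.0% of them within 0.1 of it), which gives the signal per count. Whole counts were not recovered because of a background offset, so no counting intervals are given.

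Differences were fitted on log2(signal + 1) with limma 3.58.1 in R 4.3.3, with 1 mean per group, two-sided p-values and Benjamini-Hochberg adjustment over the genes tested, at 0.05. T cell and macrophage comparisons of drugs used the 6 libraries of the cell type. Comparisons across cell types used all 12. Tests took genes with 2 or more libraries above 20 among those fitted, out of 750 without the 20 housekeeping genes. Fits were tested on simulated data. Where a whole group was at or below 20, the fold is a bound. Plots used matplotlib 3.10.9 and Python 3.11.15.

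Members, gene lists, tests and alternatives were chosen with earlier results of these data known. Beside the members, the text names the 3 called signalling genes with the largest difference in each direction, the 10 genes most like the members, the defining markers, and others singled out after their values were seen (such as *Fyn*, *Syk*, *Sh2d1a*, the rest of the called signalling genes under JQ1). Replicate numbers follow record order. T cell and macrophage libraries that share a treatment and a number deviated together under ricolinostat (correlation 0.79 over 659 genes). They did so only weakly under vehicle (0.135) and JQ1 (0.25). Their last label numbers run in parallel, so an alternative fit treated them as pairs with a block. Other alternatives were a pseudocount of 20, no filter, centring on housekeeping genes, quantile normalisation, a variance trend and leaving out libraries. Protein sequences were not used here. Some genes of the lists are not reported here.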

Additional observations from a re-analysis of the deposited data

Results flagged for a closer look

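The difference between T cells and macrophages in JQ1 minus vehicle was flagged for *Cd3e*, because the test of the difference itself passed. The interaction was 7.09 ± 1.07 (SE) on the log2 scale (limma adjusted p = 0.0255). *Cd3e* read 431.75 and 563.27 in vehicle T cells and 4.42 and 1.55 in JQ1 T cells. In macrophages it read 13.66 and 5.03 under vehicle and 9 and 8.22 under JQ1, at background in all 4 libraries. It could not fall there, so the passed test restates the T cell difference and says nothing on a JQ1 response in macrophages. With the replicate block 0 of the 6 genes were called by limma in this test, with 5 at an unadjusted p below 0.05. Leaving out any 1 vehicle or JQ1 library of either cell type also gave 0, with 4 or 5 at an unadjusted p below 0.05.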

How the results depend on the processing

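Counts of the 6 genes called are given here where a setting changed them. A pseudocount of 20 gave 3 for JQ1 minus vehicle in T cells, 0 for ricolinostat minus JQ1, 0 for macrophages minus T cells under JQ1 and 3 for the JQ1 interaction. Quantile normalisation gave 3 for JQ1 minus vehicle in T cells and 1 for macrophages minus T cells under ricolinostat. Leaving out both ricolinostat replicate 2 libraries gave 2 for macrophages minus T cells under JQ1 and 4 for the JQ1 interaction. The replicate block gave 2 and 0 for these, and 5 under vehicle, 4 under ricolinostat and 0 for the ricolinostat interaction, changing no other count by over 1.5 times.

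Leaving out 1 library at a time gave 0 to 6 for JQ1 minus vehicle, 0 to 5 for ricolinostat minus JQ1 and 0 to 4 for ricolinostat minus vehicle in T cells, 0 to 1 for ricolinostat minus vehicle in macrophages, 0 to 1 for macrophages minus T cells under JQ1, 2 to 5 under ricolinostat, and 0 to 2 for the JQ1 interaction. The lone library of a group was then assumed to vary like the others. The 4 under ricolinostat arose without replicate 1, with *Cd3d* (1.21) and *Zap70* (1.79) higher and *Cd3e* (-2.46) and *Cd3g* (-4.14) lower, when 204 of all tested genes were higher and 171 lower. The cause was not tested.

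Signs turned for *Zap70* and *Cd3g*, macrophages minus T cells under JQ1 (0.25 with quantile normalisation, 0.36 without T cell JQ1 replicate 1, where leaving out single libraries spanned -1.77 to 0.36), for *Cd3d* and *Zap70*, ricolinostat minus vehicle (-0.52 and -0.89 without T cell replicate 2), and for *Lck* in the ricolinostat interaction (-0.69 with quantile normalisation, -0.22 without T cell ricolinostat replicate 1, -0.52 without macrophage vehicle replicate 1 and -0.13 without macrophage ricolinostat replicate 2, in a span of -0.52 to 0.73). None was called where its sign turned. Of all tested genes, 35 were lower under JQ1 in T cells, 8 with a pseudocount of 20, 16 with quantile normalisation 77 without ricolinostat replicate 1 or 2, and 0 without vehicle or JQ1 replicate 1 or 2. Of genes higher in ricolinostat than JQ1, 18 became 0 with a pseudocount of 20 or without those vehicle or JQ1 libraries, and 10 with quantile normalisation. Genes lower in macrophages than T cells numbered 67 under vehicle, 36 under JQ1 and 37 under ricolinostat, became 116, 94 and 58 without both ricolinostat replicate 2 libraries, and ranged over 17 to 83, 15 to 49 and 13 to 45 when 1 library was left out. The block gave 65 under JQ1, and quantile normalisation 22 under ricolinostat. Genes with a higher JQ1 interaction numbered 6, 27 without both libraries and 3 with the block or a variance trend. Signals near 20 rest on few counts.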
